A study of Homo sapiens with 12 samples.

Results

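Expression in TC32 cells treated for 6 hours with 500 nM THZ531 was compared with that in TC32 cells given the solvent DMSO. The comparison rests on 4 of the 12 arrays of the series, chosen by their titles: 2 arrays at 500 nM and 2 with DMSO. TC32 is an established Ewing sarcoma cell line, a tumour line of bone and soft tissue that depends on the fusion protein EWS/FLI, and both groups carry that fusion. The compound is written THZ_5_31_1 in the labels. The other arrays used here were 2 of TC32 at 100 nM, and 2 at 500 nM and 2 with DMSO of A673, a second Ewing sarcoma line. The fit also took in the 2 arrays of A673 at 100 nM. All cells were grown in the same serum-containing medium, and the labels call the 2 arrays of a group biological replicates without saying how the cultures were separated.

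THZ531 is a covalent inhibitor of the kinases CDK12 and CDK13. With their partner cyclin K, these kinases phosphorylate the tail of RNA polymerase II and keep it processive along gene bodies. CDK12 is known for sustaining the expression of DNA repair genes and for restraining the use of early polyadenylation sites within introns.

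Biotin-labelled total RNA was hybridised to arrays, and the deposited values are log2 signals. Of 16913 genes with a usable value, 10148 were tested, those whose mean over the 12 arrays was at least 5.94, called the filter level below. Differences are 500 nM minus DMSO on the log2 scale, either on the values as deposited or relative to the array medians, where each array was first centred on its own median (written below as after centring). The median tested gene had a level of 6.87 and 6.88 in the 500 nM arrays, against 8.08 and 7.94 in the DMSO arrays. Centring took a shift of -0.79 out of every difference. External RNA controls were added before labelling, and the sources do not say whether the arrays were scaled to them, so a change in total RNA and a change in scaling cannot be told apart. Fewer cells that express a gene and less of its RNA per cell cannot be told apart either. Replicate arrays of TC32 correlated across genes at 0.994 or above, and having 2 arrays per group limits how precise any value can be.

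TC32 cells carried most markers of their tumour type in both groups, though some of these were lower at 500 nM. CD99, the surface protein used to diagnose Ewing sarcoma, had 13.18 and 13.15 at 500 nM, against 13.28 and 13.21 with DMSO. Of 10 Ewing sarcoma markers with a value, 8 had a mean at or above the filter level at 500 nM and 9 with DMSO. As deposited 5 of the 10 were lower and 0 higher, and after centring 3 were lower and 6 higher. NKX2-2 of that list had a mean of 8.36 at 500 nM, against 10.87 with DMSO. STEAP1 had 10.46 against 11.59, and FLI1 5.66, under the filter level, against 8.98. The leukocyte gene PTPRC had 3.93 and 3.86 at 500 nM, against 3.52 and 3.73 with DMSO. The epithelial gene EPCAM had 3.86 and 4.22 at 500 nM, against 4.23 and 3.95 with DMSO. PTPRC and EPCAM had the lowest means of their lists. The highest were those of the blood cell marker CD79A, at 6.53 with 500 nM and 6.81 with DMSO, and the epithelial marker MUC1, at 6.81 and 7.14. Of 6 blood cell markers 1 had a mean at or above the filter level at 500 nM and 2 with DMSO, and of 8 neuronal and glial markers 2 did at 500 nM and 4 with DMSO, among them the synaptic gene SYT1 at 8.18 and 8.29 at 500 nM, against 8.60 and 8.51 with DMSO. Of 6 epithelial markers, and of 6 endothelial and fibroblast markers, 2 did at 500 nM and 3 with DMSO. In the last list LUM was highest, with a mean of 6.90 at 500 nM and 6.86 with DMSO. The log2 of the summed signal of each of these 4 lists ranged over 8.12 to 9.44 at 500 nM and 8.30 to 9.74 with DMSO, and their part in the results was not tested.

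At 500 nM most transcripts were below their DMSO level, and a small set was above it. By limma, at an adjusted p under 0.05, 6382 of the tested genes (62.9%) were lower as deposited and 96 (0.946%) were higher, with a median difference of -0.64. As deposited, arrays of a pair share an offset and the p-values are too small. Counts and calls on that scale, here and below, therefore describe these arrays, and genes are not independent of each other in them. The unadjusted p was under 0.05 for 101 higher genes. Falls of at least 2-fold numbered 3421 (33.7%) and such rises 46 (0.453%). The fall was at least 4-fold for 1034 genes and at least 8-fold for 144. Both 500 nM arrays lay below both DMSO arrays for 9033 genes (89.0%) and above them for 211 (2.08%). Relative to the array medians, 3121 genes (30.8%) were lower and 4190 (41.3%) higher, so the share of calls that were higher was 57.3%, against 1.48% as deposited. The 96 genes higher as deposited were all higher after centring too, and 494 genes were lower as deposited but higher after centring. With the arrays centred on their 75th percentile instead, 2362 genes were lower and 5919 higher, a share of 71.5%.

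The size of the difference varied with the DMSO level, as the plot of difference by DMSO level shows. In the fifth of tested genes with the lowest DMSO levels the median difference was -0.36. It was -0.79, -1.01 and -0.93 in the next groups of equal size and -0.43 in the fifth with the highest levels, which began at 9.55. A 500 nM mean under the filter level was found for 2623 tested genes, and a DMSO mean under it for 625. Folds of such genes are given as lower bounds, counted from that level, and any fitted log2 difference printed for them rests on values under it and is no fold. The filter used all 12 arrays, so counts and medians of a list cover only the members that passed it and describe those members alone.

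**Figure D1:**
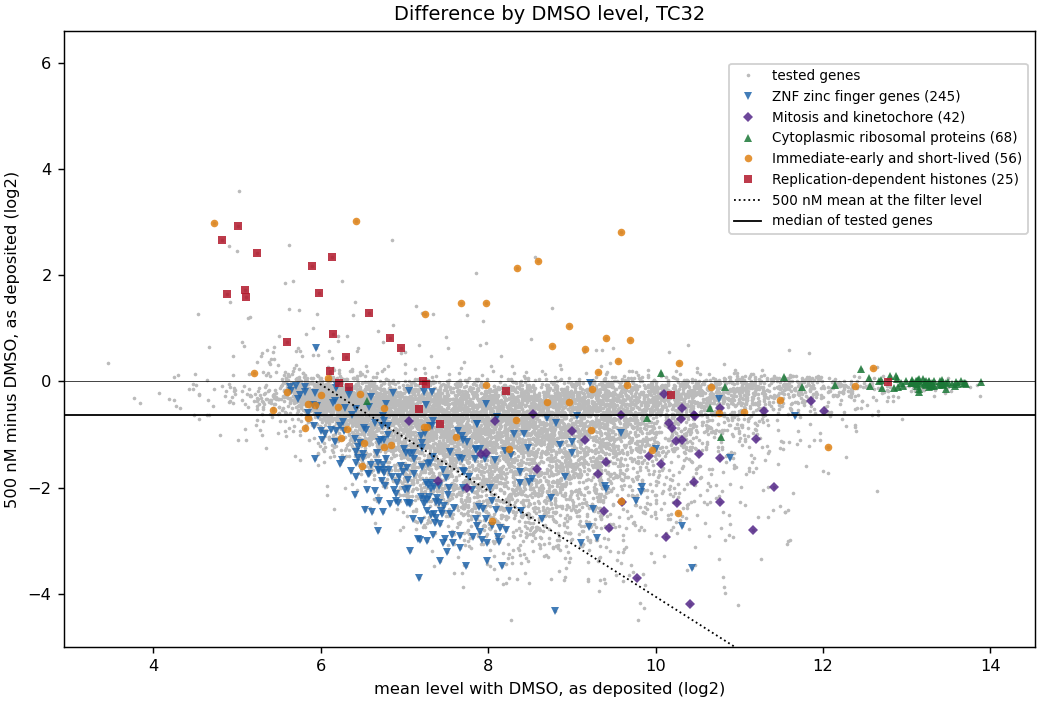
Each point is a tested gene, with its mean DMSO level on the horizontal axis and its 500 nM minus DMSO difference on the vertical axis, both log2 as deposited. Ribosomal protein genes sit at high levels close to 0, ZNF genes at low to middle levels mostly below the median line at -0.64, and histone and immediate-early genes make up many of the points above 0.

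The kinases that THZ531 binds were themselves lower at 500 nM. CDK12 had 6.48 and 6.61 at 500 nM, against 7.86 and 7.72 with DMSO (n = 2 against 2). Its difference was -1.25 ± 0.21 as deposited and -0.45 ± 0.12 after centring (limma adjusted p = 0.00267). Values after ±, here and below, are limma standard errors from the fit of all groups. As deposited they rest on the variance trend over genes and hold none of the gene's own replicate spread. After centring they combine that trend with the gene's own spread over all groups. CDK13 had 5.99 and 5.67 at 500 nM, against 7.92 and 7.84 with DMSO, at least 3.82-fold lower and -1.26 after centring. The groups did not overlap for either kinase as deposited. At 100 nM CDK12 was not called as deposited (0.34) and was higher after centring (0.54, limma adjusted p = 0.000921). CDK13 at 100 nM differed by -0.29 as deposited and -0.08 after centring, called on neither scale. At 500 nM CCNK, which encodes cyclin K, was called as deposited only, at -0.93. Its difference after centring was -0.13 (limma adjusted p = 0.279). Among 16 tested genes of the transcription kinases and their cyclins, 13 were lower as deposited, and 8 were lower and 4 higher after centring. With the arrays centred on their 75th percentile instead, 6 of the list were lower and 7 higher. The value of a gene after centring, that of CDK12 included, moves with the percentile used. Over all tested genes 62.9% were lower as deposited, and 30.8% were lower and 41.3% higher after centring. List counts here and below are to be read beside these shares. MED13, which joins the kinase module to Mediator, was at least 7.44-fold lower, and CDK7, the kinase of the initiation factor TFIIH, differed by -2.29 as deposited and -1.50 after centring. CCNL2, which encodes cyclin L2, and CDK19, a Mediator kinase, had the highest values of the list as deposited, at -0.28 and -0.36, and neither was called on that scale.

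Genes of elongation control were mostly lower, and the pair that were higher as deposited were HEXIM1 and BRD2. Of 29 tested elongation factor genes, 22 (75.9%, against 62.9% of all tested genes) were lower and 2 higher as deposited. After centring 13 were lower and 8 higher. HEXIM1, the inhibitor that holds the elongation kinase P-TEFb in the 7SK complex, had 10.20 and 10.06 at 500 nM, against 9.65 and 9.34 with DMSO, a difference of 0.64. BRD2, a bromodomain protein that binds acetylated chromatin, had 9.70 and 9.73 at 500 nM, against 9.21 and 9.09 with DMSO, a difference of 0.56. Both rises were called with all arrays, neither was called as deposited without DMSO replicate 2, and 1 of the 2 was lost without either 500 nM array. MEPCE, which caps and stabilises 7SK RNA, fell by 3.22 as deposited and by 2.43 after centring.

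Transcripts whose products end, restrain or degrade noncoding transcripts lay among the deepest falls. ZC3H4, which restrains noncoding transcription, had 5.41 and 5.18 at 500 nM, against 9.83 and 9.75 with DMSO. That is at least 14.4-fold lower, and the fitted difference of -4.50 was the lowest of all tested genes. Of 22 tested genes of noncoding RNA restriction and the nuclear exosome, 20 were lower as deposited and 16 after centring, where 3 were higher. ZCCHC8, a scaffold of the nuclear exosome targeting complex, was at least 5.59-fold lower. SRRT, which encodes the cap-associated protein ARS2, was not called as deposited (0.29) and was 1.08 after centring. Among 13 subunits of Integrator, the complex that cleaves nascent small nuclear RNAs and ends unproductive transcription, 11 were lower as deposited and 9 after centring. INTS6 and INTS7 fell by 2.69 and 2.68 as deposited, while INTS1 and INTS11 were not called on that scale (-0.31 and -0.40). In the list of 25 cleavage, polyadenylation and termination genes 19 were lower as deposited and 12 after centring, and PCF11, a termination factor, was at least 3.57-fold lower. CPSF6 and RBBP6 of that list were not called as deposited (-0.08 and 0.03).

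DNA repair genes were lower in most cases on the values as deposited, and less often after centring. Of 33 tested genes of homologous recombination and replication stress, 30 were lower as deposited and 20 after centring, where 4 were higher, and the list's median difference was -1.19, against -0.64 for all tested genes. PALB2, which brings BRCA2 to broken DNA, was at least 5.45-fold lower, and the helicase gene BLM at least 4.02-fold lower. ATM, the kinase that signals double-strand breaks, was not called as deposited at 500 nM (0.42) and was higher after centring (1.21, limma adjusted p = 5.44e-07), though both its group means lay under the filter level. Among 28 genes of single-strand break and excision repair 24 were lower as deposited and 12 after centring, where the list median was -0.07. TDG, a glycosylase that removes mismatched thymine, had 5.60 and 5.32 at 500 nM, against 9.24 and 9.14 with DMSO, at least 9.50-fold lower. PARP1, the break sensor, was not called as deposited (-0.17).

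Mitotic genes were lower almost throughout on the values as deposited. All but 1 of 42 tested mitosis and kinetochore genes were lower on that scale, against 62.9% of all tested genes, with a list median of -1.36. After centring 26 were lower and 5 higher, and those 5 were 3 without DMSO replicate 1 and 2 without DMSO replicate 2 or 500 nM replicate 2. CENPA, the histone variant that marks centromeres, had 6.27 and 6.14 at 500 nM, against 10.51 and 10.31 with DMSO, an 18.4-fold fall (-4.20 ± 0.21, and -3.41 ± 0.11 after centring, limma adjusted p = 7.24e-16). HJURP, the chaperone that loads CENPA onto chromatin, had 6.15 and 6.28 at 500 nM, against 9.95 and 9.75 with DMSO, a 12.4-fold fall. NDC80, which ties kinetochores to microtubules, had 5.83 and 6.33 at 500 nM, against 9.78 and 9.78 with DMSO, a 12.96-fold fall. CENPU, a constitutive centromere protein gene, was the list member not called as deposited, at -0.24. Of 35 centrosome genes 33 were lower as deposited and 22 after centring, and STIL, needed for centriole duplication, was at least 11.98-fold lower. In the 46 tested genes of G1/S progression and DNA replication, 36 (78.3%, against 62.9% of all tested genes) were lower as deposited. After centring 22 were lower and 14 higher. E2F8 and E2F7, repressors of the E2F program, were at least 5.02-fold and 5.08-fold lower. TYMS, which makes thymidylate, and POLD2, a polymerase delta subunit gene, differed by -0.03 and -0.05 and were not called as deposited.

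The promoter of CENPA is shown because it holds letters common in its list. RefSeq promoters (GRCh38.p14, 250 bases before to 50 after the first start listed for a gene) were searched on both strands for the CArG box and 9 other motifs. Those given here are TTTGAA, the core of the cell cycle homology region of mitotic genes, then CCAAT, bound by the factor NF-Y, and the spelling TATAAA. Of the rest, the CREB site TGACGTCA stood in 10.5% of the mitosis list's promoters, against 3.38% of tested genes and 1.98% of all promoters. The ETS site GGAAGTG stood in 15.8%, the same share as in tested genes (15.8%), against 11.5% of all promoters. The E2F site TTTCCCGC stood in 2 of the 38 (5.26%), against 2.77% of tested genes and 1.66% of all promoters. The AP-1 site TGACTCA, the E2F site TTTGGCGC and GGAAGGAA, a repeat bound by EWS/FLI, stood in none of the list's 38 promoters. Their shares were 3.04%, 1.10% and 3.275% of tested genes, and 4.92%, 0.659% and 3.58% of all promoters. The motif TTTGAA stood in 22 of 38 promoters of the mitosis list (57.9%), against 9.69% of 8397 promoters of tested genes and 15.4% of all 27305 promoters. CCAAT stood in 73.7% of the list's promoters, against 37.0% of tested genes and 35.7% of all promoters. Capitals mark only TTTGAA and CCAAT on either strand, none of which overlap. A match to the E2F site TTTCCCGC in this promoter is left in lower case. The promoter lies on the plus strand at chr2:26785806-26786105.
CENPA: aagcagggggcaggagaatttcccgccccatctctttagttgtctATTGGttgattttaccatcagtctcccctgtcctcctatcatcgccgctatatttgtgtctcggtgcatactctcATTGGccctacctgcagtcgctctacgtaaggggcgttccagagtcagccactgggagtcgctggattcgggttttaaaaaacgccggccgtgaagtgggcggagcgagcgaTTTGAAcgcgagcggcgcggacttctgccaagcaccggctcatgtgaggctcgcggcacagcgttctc

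Transcription factors of Ewing sarcoma split into deep falls and genes that stayed near the DMSO level. FLI1, a partner in the fusion, whose probe position relative to the fusion point is not given in the sources used here, had 5.87 and 5.45 at 500 nM, against 8.996 and 8.961 with DMSO. It was at least 8.20-fold lower and -2.53 after centring (limma adjusted p = 8.97e-13). BCL11B, a zinc finger repressor, had 6.89 and 6.79 at 500 nM, against 10.90 and 10.77 with DMSO, a 15.9-fold fall. TFAP2A, a developmental transcription factor gene, had 5.97 and 6.08 at 500 nM, against 9.73 and 9.62 with DMSO, a 12.5-fold fall. Of 28 tested transcription factors of the tumour, 20 (71.4%, against 62.9% of all tested genes) were lower as deposited. After centring 15 were lower and 8 higher. ID2, an inhibitor of basic helix-loop-helix factors, and PAX3, a factor of neural crest and muscle precursors, were not called as deposited (-0.09 and -0.03). EWSR1, the other fusion partner, was lower as deposited (-0.42, a call lost when any 1 of the 4 arrays was left out) and higher after centring (0.38, limma adjusted p = 0.00493). MYC was lower as deposited (-0.57) and not called after centring (0.23, limma adjusted p = 0.0758). Without 500 nM replicate 1, MYC was not called as deposited (-0.43) and was called after centring (0.39).

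Genes that EWS/FLI activates did not move as a block. Among 33 tested EWS/FLI-activated genes, 21 (63.6%) were lower as deposited, near the 62.9% of all tested genes. After centring 14 were lower and 14 higher (42.4% each), against 30.8% and 41.3% of all tested genes. The list median as deposited was -0.57, against -0.64 for all tested genes. E2F3 fell by 2.97 as deposited, whereas the kinase gene PRKCB and the antibody receptor gene FCGRT, at 11.62 and 11.70, and 12.08 and 12.06, at 500 nM, were not called as deposited (-0.06 and 0.09). Of 22 EWS/FLI-repressed genes, 8 were lower and 2 higher as deposited, and 3 were lower and 15 higher after centring. Those as-deposited counts of lower genes dropped to 4 without DMSO replicate 1 and to 5 without 500 nM replicate 1, and the count of higher genes to 1 without DMSO replicate 2 or without 500 nM replicate 2. Both lists come from general knowledge of EWS/FLI targets and were chosen with earlier results of these arrays known.

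ZNF genes, which encode zinc finger proteins, many of them repressors, had the lowest median of the lists over their tested members. Of 454 ZNF genes with a value 245 passed the filter. Of these 219 were lower as deposited, and 178 were lower and 26 higher after centring. The median difference was -1.67 as deposited and -0.88 after centring. Of the 219, 154 had a 500 nM mean under the filter level, so the list medians rest partly on values that measure no fold. ZNF7 was at least 7.24-fold lower and ZNF160 at least 2.34-fold lower, both with 500 nM means under the filter level. ZNF33A was the list's exception, at 0.62 and called as deposited, a call that was lost without DMSO replicate 1 and without 500 nM replicate 2. Of 39 tested histone methyltransferases and demethylases 35 were lower as deposited and 24 after centring. SUV39H1, which trimethylates histone H3 in heterochromatin, fell by 2.59, and NSD1, which methylates a lysine of histone H3, rose by 1.06. KMT5B, an H4 methyltransferase gene, rose by 0.68, a call that was lost without 500 nM replicate 2.

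Several of the largest measured falls were those of other genes, as the plot of levels in each array shows. GDF6, a bone morphogenetic protein ligand, had 6.81 and 6.74 at 500 nM, against 10.96 and 11.02 with DMSO, an 18.6-fold fall. KANK1, a cytoskeletal adaptor gene, had 6.81 and 7.09 at 500 nM, against 11.01 and 10.62 with DMSO, a 14.59-fold fall. ISG20L2, a nuclease of ribosomal RNA maturation, had 6.03 and 6.03 at 500 nM, against 9.97 and 9.78 with DMSO, a 14.4-fold fall. UMPS, of pyrimidine synthesis, fell 12.9-fold and FADD, the adaptor of death receptors, fell 12.1-fold. In none of these genes did the arrays of the 2 groups overlap, as the naming rule required. Among genes whose 500 nM mean lay under the filter level, ZBED5 was at least 15.2-fold lower, GORAB, a Golgi protein gene, at least 14.62-fold, TADA1, a SAGA subunit gene, at least 10.9-fold and IRS1, the insulin receptor substrate, at least 10.4-fold. LRIF1, CTTNBP2 and the cap methyltransferase gene CMTR2 were at least 3.37-fold, 4.70-fold and 5.84-fold lower.

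Other machinery and signalling lists lay between these extremes. Nuclear pore genes were lower as deposited in 25 of 28 cases (median -1.21), cohesin and condensin genes in 20 of 22 (median -0.98) and kinesins in 21 of 29 (median -1.01). After centring 16 nuclear pore genes were lower and 5 higher, 10 cohesin and condensin genes lower and 5 higher, and 14 kinesins lower and 8 higher. BMP, TGF-beta and Hippo signalling genes were lower in 26 of 31 cases (median -0.82). For insulin, IGF and PI3-kinase signalling genes it was 17 of 26 (median -1.06), close to the 62.9% of all tested genes, and after centring 13 were lower and 10 higher. Splicing factors were lower as deposited in 30 of 46 cases, and after centring 9 were lower and 21 higher, shares near those of all tested genes for lower as deposited (62.9%) and higher after centring (41.3%). Solute carriers had a median of -0.63, against -0.64 for all tested genes.

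**Figure D2:**
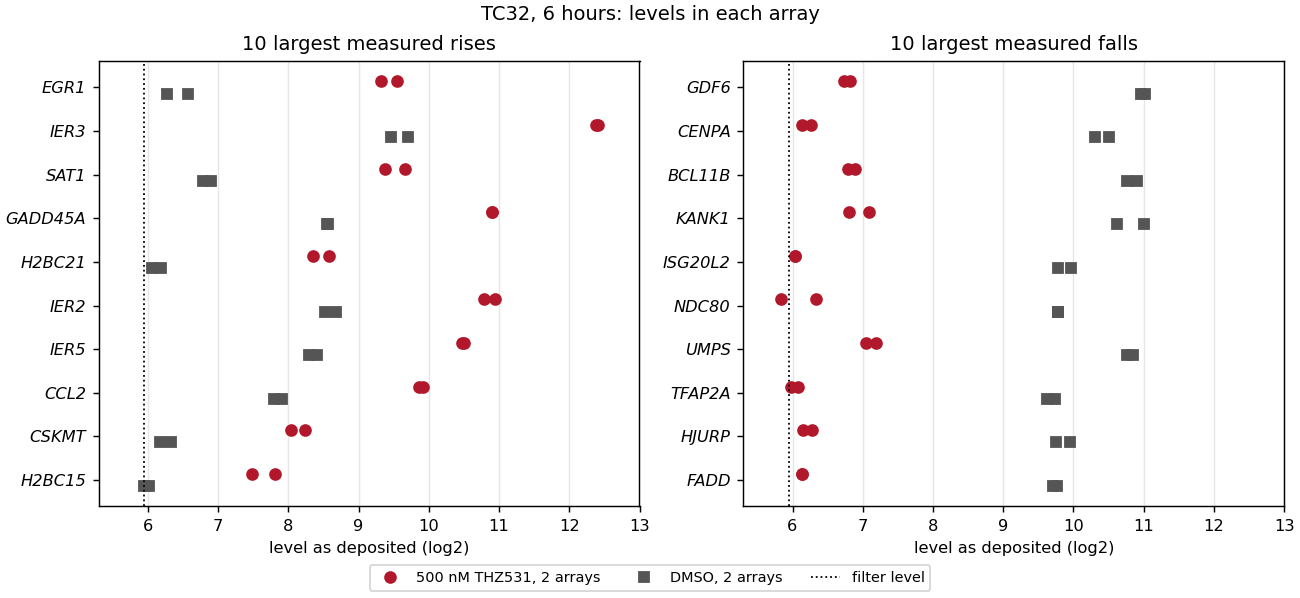
Log2 levels as deposited in each of the 4 arrays, for the 10 largest rises and the 10 largest falls among genes whose group means both reached the filter level (dotted line). Circles are the 2 arrays at 500 nM and squares the 2 DMSO arrays, and they do not overlap in any row. EGR1 sits at 9.55 and 9.32 against 6.57 and 6.27, and GDF6 at 6.81 and 6.74 against 10.96 and 11.02.

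Abundant housekeeping transcripts had differences close to 0 as deposited. Of 68 tested cytoplasmic ribosomal protein genes, 3 were lower as deposited and 0 were higher (median difference -0.03), and 66 were higher after centring. In 70 tested subunits of oxidative phosphorylation, 7 were lower as deposited and 0 were higher (median -0.07), and 66 were higher after centring. That count of 7 was 3 without DMSO replicate 1 or without 500 nM replicate 1. Of 18 glycolysis genes, 3 were lower as deposited and 0 were higher (median -0.08). GAPDH had a difference of 0.06 and ALDOA, the muscle-type aldolase, 0.06, and neither was called as deposited. RPL34, a large-subunit protein gene, had the highest difference of its list at 0.23 and was not called as deposited, whereas RPL7L1, a ribosomal protein-like gene, fell by 1.04 as deposited. Of the mitochondrial ribosomal protein genes, in contrast, 59 of 69 were lower as deposited, with a median of -0.93, among them MRPL46 at -2.46. After centring 31 of these were lower and 16 higher, and the 16 were 7 without DMSO replicate 2 and 8 without 500 nM replicate 2. The ribosome biogenesis list was lower too, with 37 of 45 genes lower as deposited and 27 after centring. PPAN, which matures the large subunit, fell by 2.86, and FBL and NHP2, core proteins of small nucleolar particles, were not called as deposited (-0.09 and -0.00). These counts describe transcripts that were present at the start as well as those made during the 6 hours, and RNA half-lives were not measured.

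**Figure D3:**
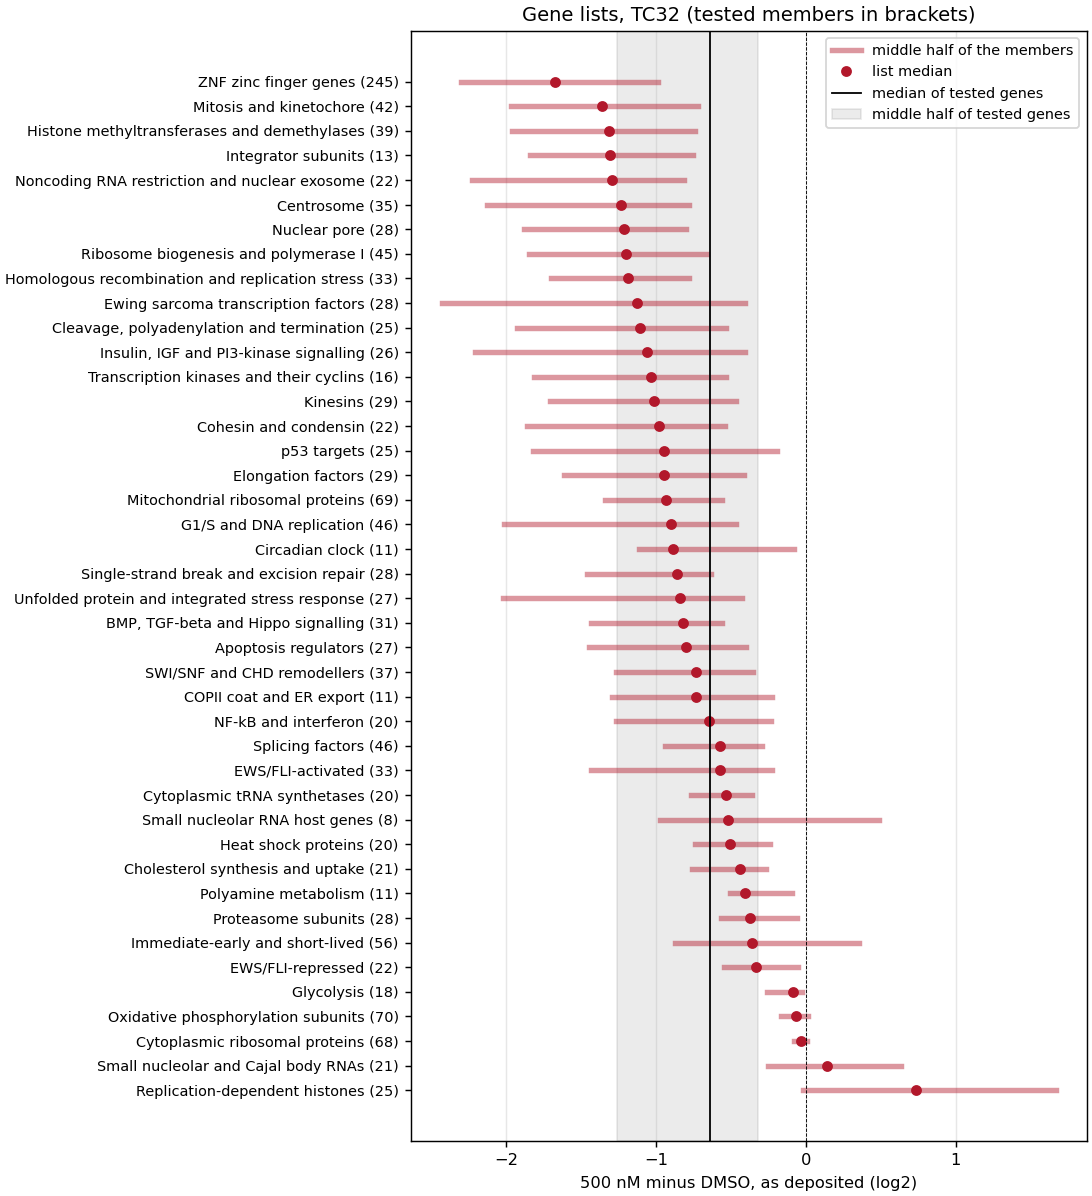
Circles give the median 500 nM minus DMSO difference (log2, as deposited) of the tested members of each list, bars the middle 50% of members, and the line and grey band the same for all tested genes. ZNF genes have the lowest median at -1.67, ribosomal proteins lie at -0.03, and the 25 histone genes that passed the filter at 0.74. Of the 219 ZNF genes called lower, 154 had a 500 nM mean under the filter level.

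The 96 genes that were higher as deposited included 13 immediate-early genes, 14 replication-dependent histone genes and 8 small nucleolar and Cajal body RNAs, while 46 were in no list. Immediate-early genes are switched on within minutes of a stimulus, without new protein synthesis, and their RNAs are short-lived. Of 56 tested immediate-early and short-lived transcripts, 13 were higher and 24 lower as deposited, and 33 were higher and 10 lower after centring. EGR1, a zinc finger factor of the serum response, had 9.55 and 9.32 at 500 nM, against 6.57 and 6.27 with DMSO, an 8.11-fold rise (3.02 ± 0.21, and 3.81 ± 0.12 after centring, limma adjusted p = 5.58e-16). IER3, a stress-induced survival gene, had 12.40 and 12.38 at 500 nM, against 9.70 and 9.46 with DMSO, a 7.01-fold rise. IER2 and IER5, both of the same serum-responsive class, rose 4.79-fold and 4.40-fold. PLK2, a polo-like kinase gene, had 7.69 and 7.74 at 500 nM, against 4.54 and 4.92 with DMSO, at least 3.41-fold higher. Other members went the opposite way: SPRED1, an inhibitor of Ras signalling, was at least 4.29-fold lower and the kinase gene PIM3 fell by 2.47. FOS, in contrast to EGR1, was not called as deposited, with 10.39 and 10.69 at 500 nM, against 10.57 and 10.74 with DMSO.

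The EGR1 promoter is shown because it carries CArG boxes, the sites of serum response factor. It held 2 of them, starting at -105 and -83 from the start site, and lies on the plus strand at chr5:138465229-138465528 (GRCh38.p14, RefSeq). A CArG box stood in 1.07% of promoters of tested genes and 1.29% of all promoters, and in 2 of 45 promoters of the immediate-early list (4.44%). Capitals mark both boxes and a match to TTTGAA on the minus strand.
EGR1: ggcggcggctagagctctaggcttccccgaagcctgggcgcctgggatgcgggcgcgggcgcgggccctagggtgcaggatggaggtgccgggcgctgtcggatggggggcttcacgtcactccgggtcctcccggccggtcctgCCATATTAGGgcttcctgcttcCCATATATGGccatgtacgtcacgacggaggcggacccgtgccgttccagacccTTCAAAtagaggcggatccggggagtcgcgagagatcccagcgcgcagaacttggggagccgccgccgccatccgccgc

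Stress and damage genes outside the immediate-early class were among the measured rises as well. SAT1, the rate-limiting enzyme of polyamine breakdown, had 9.38 and 9.66 at 500 nM, against 6.91 and 6.79 with DMSO, a 6.38-fold rise. GADD45A, a growth arrest gene that p53 can induce, had 10.90 and 10.90 at 500 nM, against 8.56 and 8.55 with DMSO, a 5.08-fold rise. Of 25 tested p53 targets 18 (72.0%, against 62.9% of all tested genes) were lower as deposited and 3 higher. After centring 11 were lower and 7 higher. The 3 higher as deposited were GADD45A, PLK2 and PMAIP1, the last a death-promoting BCL2-family gene at 0.80. Over all tested genes 0.946% were higher as deposited. POLH and PPM1D of that list were at least 2.67-fold and 3.42-fold lower. CCL2, a monocyte-attracting chemokine, had 9.86 and 9.91 at 500 nM, against 7.91 and 7.79 with DMSO, a 4.11-fold rise, and CSKMT, a methyltransferase of citrate synthase, rose 3.69-fold. In the list of the unfolded protein and integrated stress response no gene was higher as deposited. There 20 of 27 were lower (74.1%, against 62.9% of all tested genes), and 11 were lower after centring. The 10 that were higher after centring were 5 without DMSO replicate 2. In that list XBP1, the factor of the unfolded protein response, was at least 6.40-fold lower. Of 20 tested heat shock genes 12 were lower and 0 higher as deposited, near the 62.9% of all tested genes that were lower, and after centring 4 were lower and 10 higher. DNAJB1, a co-chaperone gene, fell by 2.10.

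Replication-dependent histone genes, whose messages lack a poly(A) tail and are normally limited to S phase, included several of the largest rises. Of 59 members with a value 25 passed the filter, with a median of 0.74 as deposited. Among these 14 were higher and 2 lower as deposited, and 23 were higher after centring. Of the 14, 8 had a DMSO mean under the filter level. Members that are high only at 500 nM could pass through that group, so these counts describe the 25 and say nothing of the other members. H2AC8 had 7.99 and 7.88 at 500 nM, against 5.20 and 4.83 with DMSO, at least 3.97-fold higher. H3C1 had 7.53 and 7.46 at 500 nM, against 5.01 and 4.63 with DMSO, at least 2.93-fold higher. H2BC21 had 8.58 and 8.36 at 500 nM, against 6.19 and 6.07 with DMSO, a 5.07-fold rise. H2BC15 rose 3.18-fold, H3C4 was at least 4.34-fold higher and H2BC8 at least 3.27-fold higher. The 2 lower members were the linker histone genes H1-4 and H1-3, at -0.81 and -0.52, and neither was called after centring (-0.01 and 0.27). Only 1 of the 2 was called as deposited without DMSO replicate 1, without 500 nM replicate 1 or without 500 nM replicate 2. Histone genes are near copies of each other, so the probes may share signal between them. Their labelling also depends on the primers used, which the sources here do not give.

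Promoters of 2 of these histone genes are shown because their CCAAT and TATAAA letters recur across the list. CCAAT stood in 21 of 23 promoters of tested histone genes (91.3%) and TATAAA in 15 (65.2%), against 37.0% and 5.79% of tested genes and 35.7% and 11.95% of all promoters. In the 13 promoters of histone genes that were higher as deposited, CCAAT stood in 12 (92.3%) and TATAAA in 7 (53.8%). A link of either motif to the rise was not tested. The H3C1 promoter lies on the plus strand at chr6:26020201-26020500 and that of H2BC21 on the minus strand at chr1:149886633-149886932. Capitals mark CCAAT and TATAAA on either strand, and in H2BC21 also a CArG box that starts at -164.
H3C1: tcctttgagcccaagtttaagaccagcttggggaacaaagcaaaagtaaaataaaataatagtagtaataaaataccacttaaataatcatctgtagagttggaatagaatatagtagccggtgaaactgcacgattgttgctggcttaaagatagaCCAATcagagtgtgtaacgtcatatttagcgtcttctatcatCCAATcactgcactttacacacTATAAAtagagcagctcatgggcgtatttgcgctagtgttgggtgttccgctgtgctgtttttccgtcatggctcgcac
H2BC21: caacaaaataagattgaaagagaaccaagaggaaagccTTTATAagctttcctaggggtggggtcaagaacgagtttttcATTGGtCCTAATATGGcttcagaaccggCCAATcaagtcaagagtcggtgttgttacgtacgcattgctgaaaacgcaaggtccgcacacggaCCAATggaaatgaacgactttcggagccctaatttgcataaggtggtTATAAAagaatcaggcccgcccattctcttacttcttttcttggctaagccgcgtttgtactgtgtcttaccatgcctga

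Small nucleolar RNAs, which guide the modification of ribosomal RNA and are mostly cut from introns of host genes, included the highest fitted difference. SNORA65 had 8.72 and 8.52 at 500 nM, against 5.09 and 4.97 with DMSO, at least 6.41-fold higher. SNORA84, SNORA74A and SNORD12B were at least 4.76-fold, 2.87-fold and 2.84-fold higher. Of 48 small nucleolar and Cajal body RNAs with a value 21 passed the filter, of which 8 were higher and 2 lower as deposited, and 19 were higher after centring. Of the 8, 7 had a DMSO mean under the filter level. These counts too describe only the members that passed. The count of higher RNAs was 5 without DMSO replicate 2 or without 500 nM replicate 1, and that of lower RNAs was 0 without DMSO replicate 1 or without 500 nM replicate 2. Each small RNA was set beside the gene whose span covers it in the RefSeq annotation, where exactly 1 such gene was tested, which was so for 16. The small RNA had the higher fitted difference in 10 of these pairs. Of the 21 tested small RNAs, 11 had a DMSO mean under the filter level, and members high only at 500 nM could pass. The count of pairs therefore describes these members alone. RPL12 around SNORA65 differed by 0.02 and MATR3 around SNORA74A by -0.11, neither called as deposited. SNORA80E, at least 1.38-fold higher, was called with all arrays but not when any 1 of the 4 arrays was left out, while KHDC4 around it fell by 2.07. The reverse was seen for SNORA71D, at 0.20 and not called, inside SNHG17, which was at least 2.79-fold higher. SNORA78, at -0.14 and not called, lies in SNHG9, which rose by 1.24. The covering genes are named for their position, after their values were seen.

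**Figure D4:**
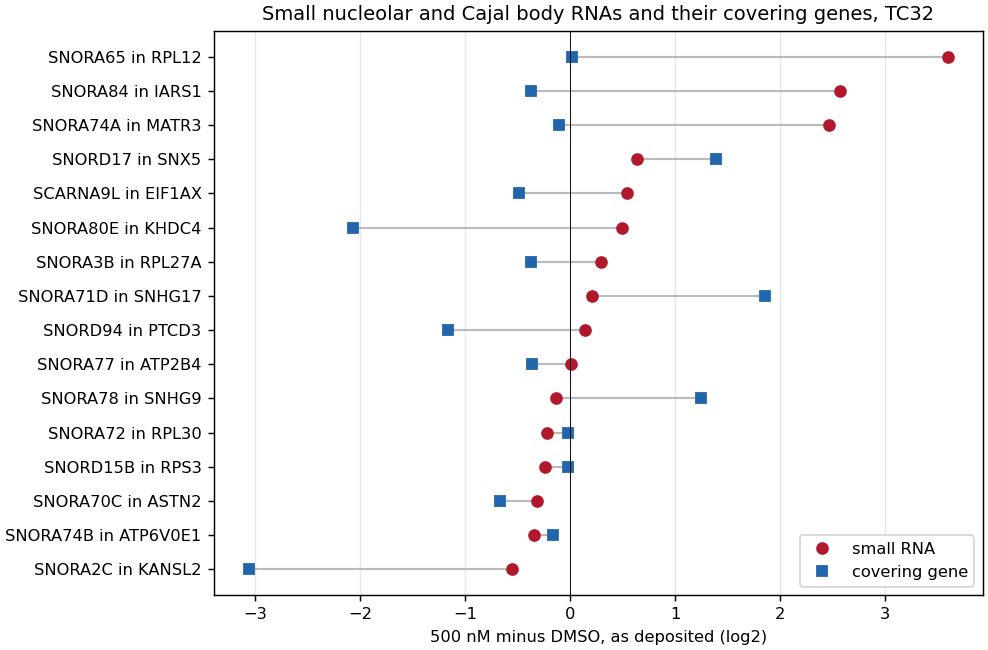
Each row is a small nucleolar or Cajal body RNA with its covering gene, and the horizontal axis is the fitted 500 nM minus DMSO difference (log2, as deposited), no fold where a mean lies under the filter level. Circles are the small RNAs and squares the covering genes. The 3 top circles, from 3.60 to 2.47, lie far right of their squares, which are between -0.38 and 0.02.

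At 100 nM, by the same test, 2124 genes (20.9%) were lower and 564 (5.56%) higher as deposited. The 2 comparisons share the DMSO arrays, so their values are given side by side only. These values are as deposited unless centring is named, so they include the offset of each array. The median tested gene had a level of 7.72 and 7.72 in the 100 nM arrays, against 6.87 and 6.88 at 500 nM. CENPA differed by -0.84 at 100 nM and -4.20 at 500 nM, and KANK1 by -0.03 at 100 nM and -3.87 at 500 nM. TADA1 had DMSO levels of 9.39 and 9.39, then 9.68 and 9.77 at 100 nM and then 5.27 and 5.92 at 500 nM. FLI1 had DMSO levels of 8.996 and 8.961, then 6.18 and 6.35 at 100 nM and then 5.87 and 5.45 at 500 nM. INTS6 differed by -2.73 at 100 nM and -2.69 at 500 nM as deposited, and by -2.52 and -1.90 after centring. EGR1 differed by 0.61 at 100 nM and 3.02 at 500 nM. Some genes had their higher value as deposited at the lower dose. SEC24A, a coat protein gene of ER export, had DMSO levels of 5.82 and 5.42, then 8.85 and 8.87 at 100 nM and then 6.88 and 7.11 at 500 nM. CHD2, a chromatin remodeller gene, had DMSO levels of 5.89 and 5.76, then 8.73 and 8.60 at 100 nM and then 6.55 and 6.89 at 500 nM. KMT5B had DMSO levels of 7.23 and 7.12, then 10.01 and 9.74 at 100 nM and then 7.62 and 8.09 at 500 nM. HECTD2, a ubiquitin ligase gene, had DMSO levels of 5.77 and 5.57, then 8.49 and 8.25 at 100 nM and then 7.44 and 7.68 at 500 nM. After centring the HECTD2 differences were nearer each other, 2.91 at 100 nM and 2.68 at 500 nM. BRD2 differed by 1.78 at 100 nM and 0.56 at 500 nM. ATM had DMSO levels of 5.45 and 5.43, then 7.33 and 7.47 at 100 nM and then 5.78 and 5.95 at 500 nM. After centring CHD2 differed by 3.05 at 100 nM and 1.69 at 500 nM, and KMT5B by 2.90 and 1.47. On that scale BRD2 differed by 1.99 at 100 nM and 1.36 at 500 nM, and ATM by 2.17 and 1.21.

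**Figure D5:**
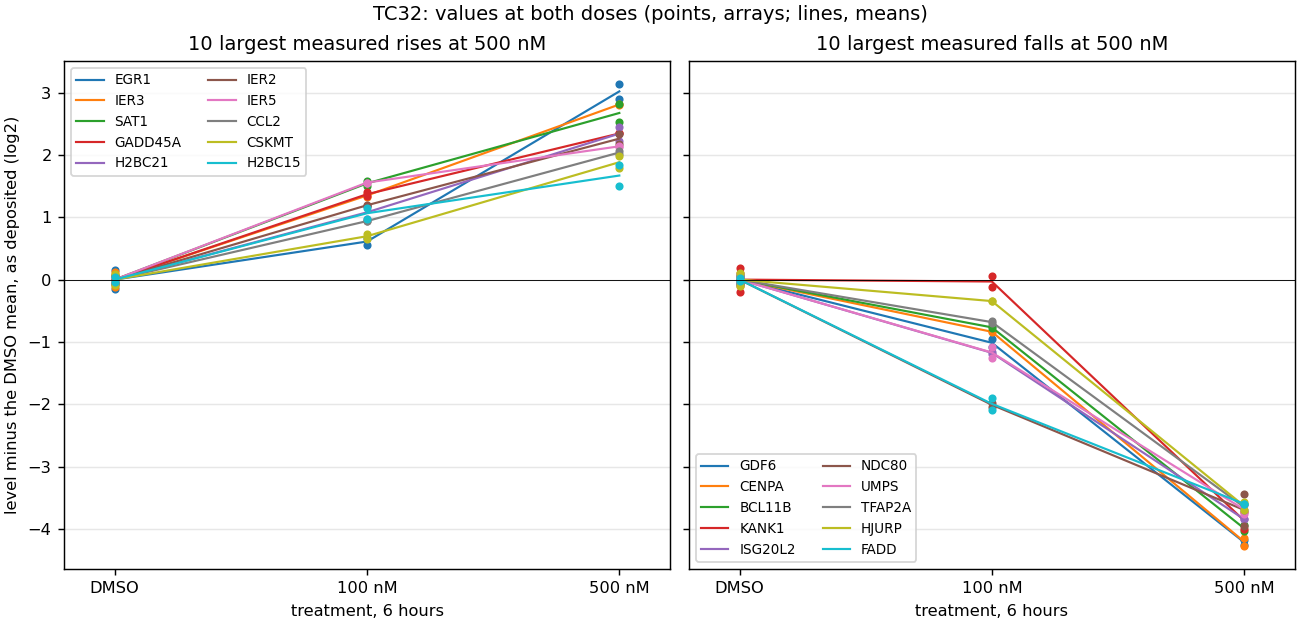
Levels minus the DMSO mean (log2, as deposited) in TC32 with DMSO, at 100 nM and at 500 nM, for the genes of the plot of levels in each array. Points are arrays and lines join group means. EGR1 lies at 0.61 at 100 nM and 3.02 at 500 nM, and KANK1 lies at -0.03 at 100 nM and -3.87 at 500 nM.

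The 500 nM response of TC32 was set against that of A673 after centring, since the pair of A673 arrays at 500 nM had a median offset of 0.523. The interaction term of limma called 309 genes (3.04%) with a higher difference in TC32 and 685 (6.75%) with a lower one. Each of the 8 arrays behind this contrast moved at least 1 of the 2 counts by over 1.5 times when left out. The counts of genes with a higher and with a lower difference in TC32 were 293 and 404 without 500 nM replicate 1 of TC32, 180 and 680 without replicate 2, 162 and 351 without DMSO replicate 1 of TC32, and 130 and 474 without replicate 2. They were 179 and 393 without 500 nM replicate 1 of A673, 169 and 488 without replicate 2, 560 and 518 without DMSO replicate 1 of A673, and 341 and 1112 without replicate 2. EGR1 was 3.81 in TC32 and 1.97 in A673, a difference of 1.84 between the lines (interaction adjusted p = 7.17e-07 by limma), and PLK2 was 3.77 in TC32 and 2.06 in A673. FOS went the other way, at 0.68 in TC32 and 2.59 in A673, and so did EID3, at 0.56 in TC32 and 2.78 in A673. OSR2 and TBX5, developmental transcription factor genes, were -1.86 and -1.56 in TC32, against 0.53 and 0.58 in A673, and TDG was -2.94 in TC32 and -1.01 in A673. The largest positive differences between the lines were those of LIN28B, OTX2 and ROR2, at 0.17, -0.21 and 0.31 in TC32, against -2.37, -2.20 and -1.63 in A673. Their TC32 means lay under the filter level in both groups, so these values in TC32 measure no fold. ZC3H4, SNORA65 and SAT1 did not pass the test of the difference, at -0.05, 0.11 and 0.03 between the lines.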

How the data were processed

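The deposited values are log2 signals, 1 per probe set and array, in 2 arrays for each of 6 groups. The submitters' processing notes name MAS5, GRCh37 and hg19 without a role, and the normalization of the deposited log2 values is not given in the sources used here. Gene names came from the platform annotation: 44994 of 49395 probe sets named 1 gene, 1832 named several and 2569 named none. Probe sets with at most 2 decimals (5.73%) were left out because their number format differed from the rest, which removed 1103 genes, and 116 genes sharing identical values with another gene were also left out. Of several probe sets for a gene, that with the highest mean was taken. No column went unused.

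Genes with a mean over 12 arrays at or above the 40th percentile (5.94) were fitted with limma 3.58.1 in R 4.3.3 (6 group means, variances trended on the mean, Benjamini-Hochberg over 10148 genes, threshold 0.05), as deposited and after subtracting from each array its median over the kept genes. Tables and figures were made with Python 3.11.15, pandas 2.3.3 and matplotlib 3.10.9. The median residual SD was 0.189 as deposited and 0.118 after centring. As deposited, arrays of a pair share an offset, the prior degrees of freedom were estimated as infinite and the p-values are too small, so single genes carry the p after centring. Nothing says how the replicate cultures were separated, so the p-values reflect only how far these samples differ, which may be technical. No exact test of 2 against 2 arrays can go below a two-sided p of 0.333. In simulated arrays, the fit called all 100 genes given a log2 change of size 1, all 100 given size 2, and 8 of 9948 left unchanged. The simulated noise was independent, with 1 SD for all genes and no offset shared within an array, unlike the deposited values. It checks only that the fit finds planted changes, and gives no error rate for the real arrays.

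The comparison and the gene lists were chosen with earlier results of these data known. Genes were named by rule: the targets, fusion partners and MYC, the 10 largest rises and falls called on both scales without overlap of arrays (with both means at the filter level, and separately with 1 mean under it), up to 2 lowest and 2 highest members of each list, and the 5 highest and 5 lowest differences between the lines. SEC24A, CHD2, KMT5B and the covering genes of small RNAs, where they fall outside it, were named after their values were seen. The DMSO samples carry a dose label of 100 nM, read here as not applying. Promoters came from RefSeq (GRCh38.p14) and matched 82.7% of tested genes. The alternatives tried were the filter, the variance trend, the probe set rule, the arrays fitted, the scaling, a replicate block and leaving out each array.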

Additional observations from a re-analysis of the deposited data

Results flagged for a closer look

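Of the 118 tested genes named in the text, 44 had a 500 nM minus DMSO difference that was not the same in TC32 and A673 by the interaction term of limma at an adjusted p under 0.05, relative to the array medians. The value in parentheses is the TC32 difference minus the A673 difference on the log2 scale, negative for 23 genes and positive for 21. Many of these genes were named for a large rise or fall in TC32 or for a large difference between the lines, so the split of directions describes the named genes and not their lists. Among immediate-early, stress and cytokine genes there was a higher difference in TC32 for EGR1 (1.84), PLK2 (1.72), CCL2 (1.70), GADD45A (1.56), IER5 (1.11), IER2 (0.98), IER3 (0.94) and PMAIP1 (0.59), and a lower one for FOS (-1.91), PIM3 (-1.50) and MYC (-0.74). Over the whole tested immediate-early list the median after centring was 0.43 in TC32 and 0.575 in A673. Among histone genes the difference was higher in TC32 for H3C4 (1.35), H3C1 (1.27), H2BC21 (1.26), H2BC8 (0.78) and H2AC8 (0.61). Over the 25 tested histone genes the median after centring was 1.53 in TC32 and 1.54 in A673. Centromere, kinase and RNA-processing genes had the lower difference in TC32 for HJURP (-0.97), CENPA (-0.97), MEPCE (-0.75) and PCF11 (-0.74), and the higher one for CDK19 (0.73) and INTS6 (0.54). Of the transcription factor, chromatin and signalling genes, the lower difference in TC32 was that of OSR2 (-2.40), TBX5 (-2.14), EID3 (-2.22), TFAP2A (-1.10), TADA1 (-1.001), ZNF7 (-0.83), GDF6 (-0.74), FLI1 (-0.70), ZBED5 (-0.69) and SUV39H1 (-0.52), and the higher one that of LIN28B (2.54), OTX2 (1.99) and ROR2 (1.94). Among the rest it was lower in TC32 for TDG (-1.93), ISG20L2 (-1.47), KHDC4 (-0.82), SNORA80E (-0.79), DNAJB1 (-0.79) and UMPS (-0.65), and higher for SYT1 (1.02), HECTD2 (0.86) and FCGRT (0.49). The 2 lines had differences of opposite sign for 6 of them, OSR2, TBX5, CDK19, SYT1, ROR2 and LIN28B. ROR2, OTX2 and LIN28B had TC32 means under the filter level in both groups.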

How the results depend on the processing

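Under quantile normalization 3035 genes were lower and 4387 higher at 500 nM, with a median difference of 0.15, against 6382, 96 and -0.64 as deposited. That normalization also gave CCNK 0.0906, EWSR1 0.17, H1-3 0.60 and H1-4 0.31, which were negative as deposited, and CD99 -0.0348 and ROR2 -0.23, which were positive relative to the array medians. RPL7L1 was 0.0305 with arrays centred on their 75th percentile. The filter moved other counts: without it 8991 genes were higher relative to the array medians and the median difference as deposited was -0.39, and with a 60th percentile filter 2652 were higher relative and 59 as deposited. Leaving out 1 array of the comparison gave 4966 to 5662 genes lower and 72 to 81 higher as deposited, a median of -0.70 to -0.59, and 2688 to 3027 lower and 3268 to 3541 higher relative.

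The contrast between the lines also moved with the setting. It gave 878 genes higher and 1331 lower in TC32 under quantile normalization, 991 and 1093 with the 75th percentile, and 56 and 130 as deposited. Leaving out 1 array gave 130 to 560 higher and 351 to 1112 lower. Quantile normalization, the 75th percentile and the A673 arrays left out of this contrast were chosen after seeing the data.

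Same-numbered arrays deviated from their group means with correlations of -0.156 to 0.438, so the numbers were not taken as pairs. With the replicate block, 6781 genes were lower and 102 higher as deposited, 3153 lower and 4296 higher relative, and 522 higher and 854 lower in the contrast between the lines. The cause of these moves was not tested. For the genes named, 1469 of the gene and setting pairs on the relative scale kept direction and side of the threshold, 24 lost the call, 10 gained one and 3 changed sign.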
